A study of Mus musculus with 4 samples.

Results

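The genes described here are 36 genes of the oligodendrocyte lineage and of myelin, looked up among 18010 genes measured in the mouse dentate gyrus. They were chosen by name from cell biology, with earlier results of these data known. Of the 36, 35 had a measurement. Olig1, a lineage transcription factor gene with a single exon, has no probeset in the tables and is listed at 0, which is no measurement. Of the others, 33 were found under the symbol in the tables and 2 under an older one (Gm98 for Myrf and A230069A22Rik for Tmem88b).

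Wild-type C57/Black6 male mice of 8 weeks were used in both groups. The first group comprised 2 arrays from mice 4 h after electroconvulsive stimulation (ECS), a seizure-inducing current delivered at 100 Hz for 1.0 s, with 18 mA pulses that lasted 0.3 ms each. The second comprised 2 arrays from mice 4 h after sham handling. Arrays of a group are called biological replicates in the labels, and the labels do not give the number of animals behind each array. RNA came from dentate gyrus cut out of the whole hippocampus, so each value is that of a mixed tissue. Values are log2 expression values from exon arrays, averaged here over the probesets of a transcript, where a probeset is a small group of probes within an exon. Levels are compared between arrays for the same gene and not between genes.

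Oligodendrocytes wrap axons in myelin, a lipid-rich sheath held together by a few very abundant proteins. They arise from progenitors that carry the growth factor receptor Pdgfra and the proteoglycan Cspg4, pass through a committed stage marked by Gpr17 and Bcas1, and then switch on the myelin genes under the transcription factors Sox10 and Myrf. Progenitors are spread through the hippocampus, and neuronal activity is known to affect their division and maturation in several brain regions.

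No gene of the 35 passed the test between ECS and sham arrays (limma, two-sided, Benjamini-Hochberg adjustment over all genes, threshold 0.05), against 0.694% of all 18010 genes. The smallest adjusted p among them was 0.186. At an unadjusted p under 0.05, 0 were higher and 2 lower, Gpr17 and Gpr37, against 6.39% and 10.5% of all genes. With trend and robust variance, limma also called 0 of the 35, against 365 higher and 352 lower among all 18010 genes. The array ECS 1 was the highest of the 4 arrays for 27 of the 35 genes, against 22% of all genes. ECS 2 was highest for 1, sham 1 for 5 and sham 2 for 2. The ECS arrays were more than 0.5 apart for 14 of the 35 genes, against 4.03% of all genes. ECS 1 was the higher of them for all 14, against 2.13% of all genes with ECS 1 that far above ECS 2. The sham arrays were that far apart for 2 genes, against 4.21% of all. In mixed tissue, fewer cells of a type and less RNA per cell cannot be told apart.

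**Figure D1:**
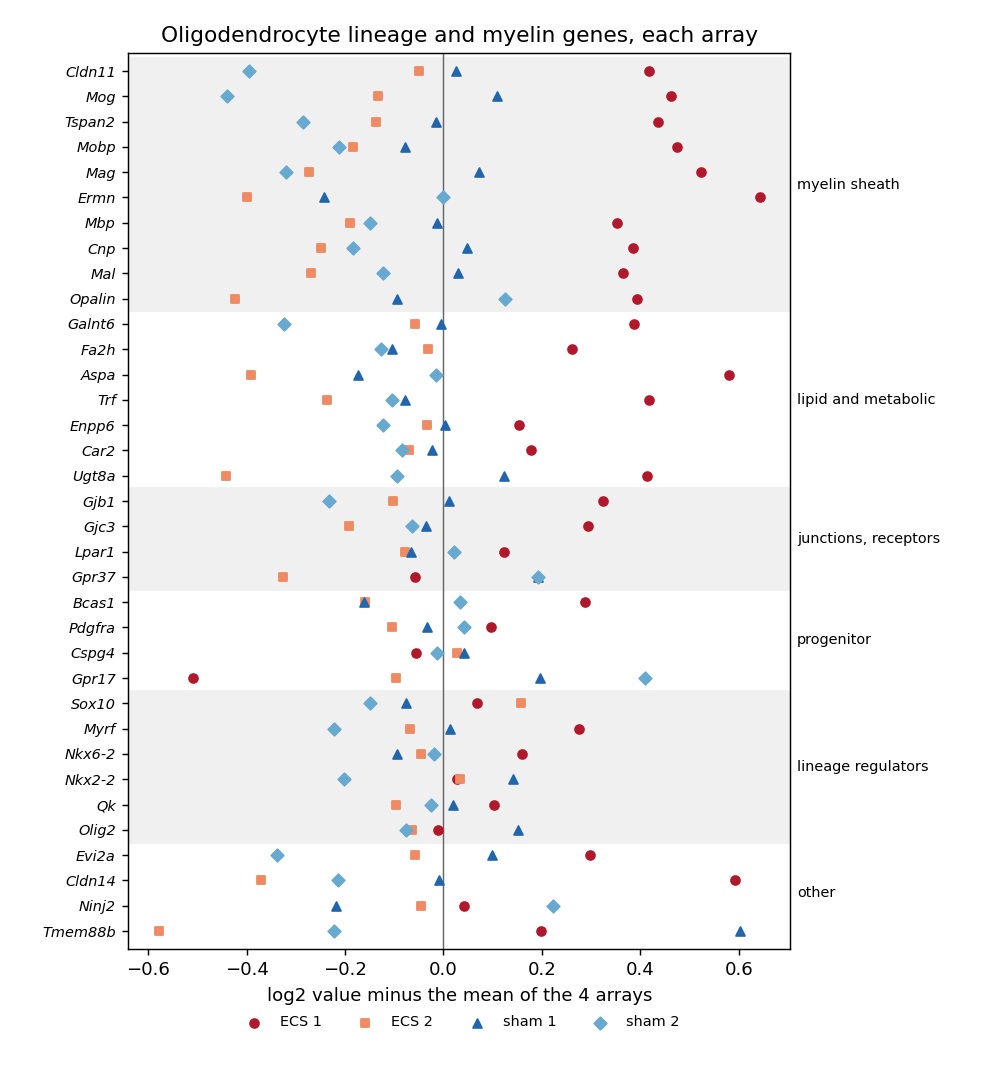
Deviation of each array's log2 value from the mean of the 4 arrays (x axis) for each of the 35 measured genes (rows, grouped by role). ECS 1 is the rightmost point for 27 genes, including all 10 myelin sheath genes, while ECS 2 lies among or below the sham points for most.

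For the 10 genes of the myelin sheath, ECS 1 was highest in 10 of 10. Their median difference between ECS 1 and ECS 2 was 0.64, against 0.03 over all genes, and that between sham 1 and sham 2 was 0.19, against -0.05 over all genes. Summed on the linear scale, their values came to 7181 on ECS 1 and 4610 on ECS 2, against 5330 on sham 1 and 4652 on sham 2. ECS 1 was thus above both sham arrays, and ECS 2 close to sham 2 and below sham 1. Against the sham mean, the median of the 10 genes was 0.59 for ECS 1 and -0.13 for ECS 2.

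Cldn11, which encodes the tight junction claudin of the myelin sheath, read 9.24 on ECS 1 and 8.77 on ECS 2, against 8.85 on sham 1 and 8.43 on sham 2 (log2 difference 0.37 ± 0.21, SE, n = 2 per group, limma adjusted p = 0.439). The sham and ECS values overlapped, and sham 1 stood above ECS 2. Mog, a surface glycoprotein gene of the outermost myelin layer, read 8.33 and 7.73 on the ECS arrays, against 7.97 and 7.42 on the sham arrays, with a difference of 0.33 ± 0.26. The arrays fell in the same order for Mog as for Cldn11. With 1 array left out, the difference ran from 0.13 to 0.60 for Cldn11 and from 0.03 to 0.63 for Mog, lowest without ECS 1 and highest without ECS 2.

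Ermn, which encodes the actin-binding protein ermin, had the widest gap between the ECS arrays, at 9.40 on ECS 1 and 8.36 on ECS 2, against 8.51 and 8.76 on sham 1 and sham 2. ECS 1 was the highest and ECS 2 the lowest of all. Opalin, a membrane glycoprotein gene of myelinating cells, had 7.16 and 6.35 on ECS 1 and ECS 2, against 6.67 and 6.90 on the sham arrays. For Mag, an adhesion receptor gene of the inner myelin membrane, the values were 9.15 and 8.36 on the ECS arrays, against 8.70 and 8.31 on the sham arrays. The ECS groups of all 3 genes enclosed or overlapped the sham values, and their log2 differences were 0.24 ± 0.34 (Ermn), -0.03 ± 0.28 (Opalin) and 0.25 ± 0.29 (Mag).

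Mobp, which encodes a basic protein of compact myelin, read 8.53 on ECS 1 and 7.87 on ECS 2, against 7.97 and 7.84 on sham 1 and sham 2. Mal, a proteolipid gene of membrane transport, had 8.65 and 8.02 on the ECS arrays, against 8.31 and 8.16 on the sham arrays. Cnp, whose product is an enzyme of non-compact myelin, had 10.65 and 10.01 on the ECS arrays, against 10.31 and 10.08 on the sham arrays. Here too ECS 1 stood apart, and ECS 2 lay within or below the sham range. Tspan2, a tetraspanin gene of myelinating cells, had 9.80 and 9.22 on the ECS arrays, against 9.34 and 9.07 on the sham arrays, and its difference of 0.30 was 0.01 without ECS 1 and 0.59 without ECS 2.

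Promoter windows show the sequence from which some of these genes start. RefSeq windows of build GRCm38.p6, from 250 bases before to 50 after a transcription start, were found for 26 of the 36 genes, 37 windows in all, and some windows of a gene overlap. Each was searched on both strands for ACAAAG and ACAATG, cores bound by Sox proteins, for CAGCTG, an E-box bound by Olig2, and for CTGGCAC and CTGGTAC, which Myrf binds. No motif contains another. The windows shown are those of Mobp (chr9:120149492-120149791, plus strand), Mag (chr7:30914814-30915113, minus strand), Opalin (chr19:41077064-41077363, minus strand) and Gpr37 (chr6:25689931-25690230, minus strand), 5′ to 3′ on the gene's strand, with motif letters in capitals. Mobp, Mag and Opalin, which were highest on ECS 1, were picked for display after the motif matches had been seen, because they hold several; other genes highest on ECS 1, such as Cldn11 and Mal, hold none in their windows. Where a gene has several windows, the one with the most matches is shown, and between tied windows, as for Mag, the one with the lower start coordinate. Gpr37 is shown because it was lower on both ECS arrays.
Mobp: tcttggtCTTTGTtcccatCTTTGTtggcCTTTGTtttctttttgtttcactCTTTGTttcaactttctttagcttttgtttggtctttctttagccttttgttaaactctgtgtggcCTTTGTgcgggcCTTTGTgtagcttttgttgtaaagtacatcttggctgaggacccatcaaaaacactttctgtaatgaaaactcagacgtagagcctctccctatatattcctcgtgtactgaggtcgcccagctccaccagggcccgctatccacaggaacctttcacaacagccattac
Mag: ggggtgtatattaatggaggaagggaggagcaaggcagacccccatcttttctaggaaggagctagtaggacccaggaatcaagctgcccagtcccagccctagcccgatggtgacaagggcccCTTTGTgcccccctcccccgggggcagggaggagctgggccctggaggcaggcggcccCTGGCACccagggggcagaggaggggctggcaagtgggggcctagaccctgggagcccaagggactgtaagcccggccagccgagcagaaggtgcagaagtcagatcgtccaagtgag
Opalin: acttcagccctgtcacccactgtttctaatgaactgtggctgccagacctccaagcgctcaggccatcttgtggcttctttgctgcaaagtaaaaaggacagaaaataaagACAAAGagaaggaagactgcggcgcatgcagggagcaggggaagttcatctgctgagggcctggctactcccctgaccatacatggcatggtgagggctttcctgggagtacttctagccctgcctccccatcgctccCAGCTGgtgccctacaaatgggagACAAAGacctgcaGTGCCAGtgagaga
Gpr37: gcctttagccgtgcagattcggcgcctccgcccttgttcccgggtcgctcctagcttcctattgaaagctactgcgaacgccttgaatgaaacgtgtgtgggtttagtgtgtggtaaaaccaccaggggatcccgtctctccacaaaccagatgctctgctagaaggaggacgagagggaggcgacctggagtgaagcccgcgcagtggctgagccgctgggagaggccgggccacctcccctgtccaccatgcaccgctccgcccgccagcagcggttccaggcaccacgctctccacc
The Mobp window holds ACAAAG 6 times, counting both strands, with first bases at -243, -231, -221, -198, -132 and -120 from the start site. Mag holds ACAAAG at -126 and CTGGCAC at -68. Opalin holds ACAAAG at -139 and 24, CAGCTG at -1 and CTGGCAC at 37, and the Gpr37 window has none of the motifs.

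Over the 37 windows, ACAAAG was found in 11 (29.7%), against 18.7% of 32851 windows of the same length over all genes. ACAATG was in 7 (18.9%), against 12.6% of all, and CAGCTG in 5 (13.5%), against 16.3% of all. CTGGCAC was in 5 windows (13.5%), of Cnp, Lpar1, Mag and Opalin, against 5.01% of all. CTGGTAC was in 1, that of Mog, against 2.24% of all. Overlapping windows of Mag hold the same ACAAAG and the same CTGGCAC, and those of Cldn14 the same CAGCTG. Each of these sites is counted for every window that holds it. A match describes letters in the window and is not shown to be a bound site.

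Mbp, which encodes the basic protein that compacts myelin, read 10.65 on ECS 1 and 10.10 on ECS 2, against 10.28 and 10.15 on sham 1 and sham 2 (log2 difference 0.16 ± 0.19, adjusted p = 0.718). The gene lies on chromosome 18 and has 25 probesets in 3 different combinations. The row with the highest mean stands for 6 transcripts and 21 probesets. Transcript NM_001025245 starts 79340 bases further upstream and ends early, as the Golli forms of the gene do, which are made in neurons and immune cells as well as in the oligodendrocyte lineage. That row, with 12 probesets, had 8.98 on ECS 1 and 9.21 on ECS 2, against 9.11 and 9.27 on the sham arrays, so that ECS 1 was its lowest array. This order leaned on 2 dim probesets, which both read 4.42 on ECS 1. The log2 differences of these probesets had SEs of 0.85 and 0.88. Over the 8 probesets common to both rows ECS 1 was not lowest, with 10.24, against 10.13 on ECS 2 and 10.27 and 10.10 on the sham arrays. With the dim probesets left out, a choice made after their values were seen, ECS 1 was no longer the lowest array of this row.

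The third row, NM_010777, lists all 25 probesets and had 9.98 on ECS 1 and 9.67 on ECS 2, against 9.72 and 9.74 on the sham arrays. Of the 13 found in the brightest row but not in NM_001025245, ECS 1 was highest in 13, by 0.27 to 0.99 over the mean of the other 3 arrays (median 0.80). Their mean was 10.90 on ECS 1 and 10.09 on ECS 2, against 10.29 and 10.17 on the sham arrays. Of the 8 probesets common to both rows, ECS 1 was highest in 2, by 0.47 and 0.58 over the mean of the other arrays, and the median over the 8 was -0.04. Of the 4 absent from the brightest row, it was highest in 0, and all 4 were lower on ECS 1 than the mean of the other arrays. The largest of these gaps, -2.11, was that of a dim probeset, and in the other dim probeset sham 1 was lower than ECS 1.

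**Figure D2:**
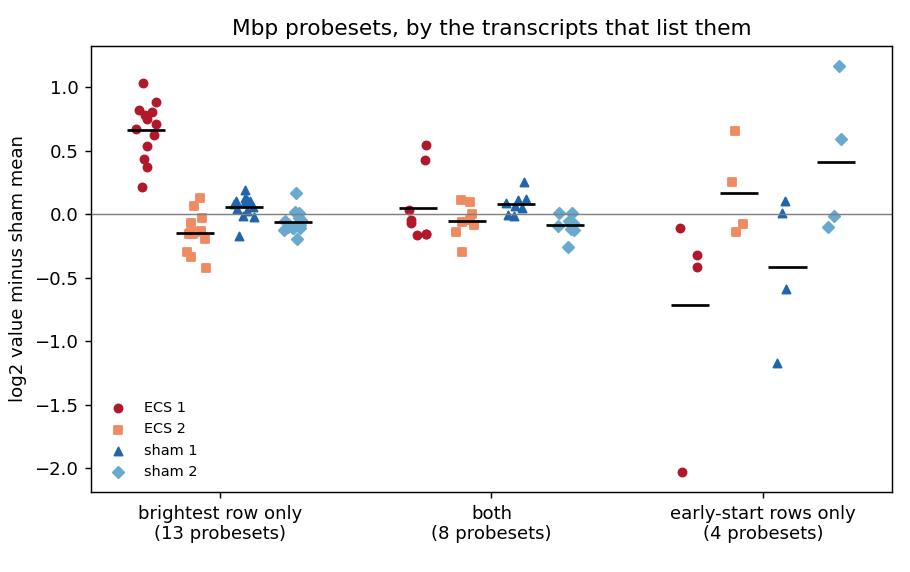
Log2 value of each Mbp probeset minus its sham mean (y axis) on each array, with probesets divided by the transcripts that list them; black bars are means over probesets. In the 13 probesets that the brightest row lists and NM_001025245 does not (labelled brightest row only in the plot, though NM_010777 lists them too), all ECS 1 points lie above the points of the other arrays for the same probeset, while in the 8 common probesets ECS 1 is highest in 2.

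Enzymes of myelin lipids and of metabolism, with the iron carrier gene Trf, had ECS 1 highest for 7 of 7 genes. Aspa, which encodes the enzyme that cleaves N-acetylaspartate and so supplies acetate for lipid synthesis, had 6.54 on ECS 1 and 5.57 on ECS 2, against 5.79 and 5.95 on the sham arrays. Ugt8a, the galactosylceramide synthase gene, had 9.86 and 9.004 on the ECS arrays, against 9.57 and 9.35 on the sham arrays. Trf, the transferrin gene, had 10.07 and 9.42 on the ECS arrays, against 9.58 and 9.55 on the sham arrays, and 19 of its 20 probesets were highest on ECS 1. For all 3 genes ECS 2 was the lowest array.

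Galnt6, a glycosyltransferase gene, had 6.31 and 5.87 on the ECS arrays, against 5.92 and 5.60 on the sham arrays (0.33 ± 0.19, adjusted p = 0.438; 0.11 without ECS 1 and 0.55 without ECS 2). Fa2h, whose product hydroxylates the fatty acids of myelin lipids, had 7.68 and 7.39 on the ECS arrays, against 7.32 and 7.29 on the sham arrays (0.23 ± 0.13, adjusted p = 0.413). Both ECS values of Fa2h lay above both sham values, while those of Galnt6 overlapped. Car2, the carbonic anhydrase gene, with 9.24 and 8.995 on the ECS arrays, against 9.04 and 8.98 on the sham arrays, and Enpp6, a choline phosphodiesterase gene of newly forming oligodendrocytes, with 6.15 and 5.96 on the ECS arrays, against 5.998 and 5.87 on the sham arrays, varied least between arrays. Their differences were 0.11 ± 0.12 and 0.12 ± 0.11.

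Both connexin genes of oligodendrocyte gap junctions, Gjb1 and Gjc3, were again highest on ECS 1. Gjb1 had 6.001 and 5.57 on the ECS arrays, against 5.69 and 5.44 on the sham arrays, and Gjc3 had 7.90 and 7.41 on the ECS arrays, against 7.57 and 7.54 on the sham arrays. Lpar1, a lysophosphatidic acid receptor gene, had 8.04 and 7.84 on the ECS arrays, against 7.85 and 7.94 on the sham arrays. The ECS values overlapped the sham values for all 3 genes.

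Gpr37, an orphan receptor gene that restrains the maturation of oligodendrocytes, was lower on both ECS arrays, with 9.25 and 8.98 on ECS 1 and ECS 2, against 9.50 on both sham arrays (-0.38 ± 0.12, unadjusted p = 0.0223, adjusted p = 0.218). All 3 of its probesets had both ECS values below both sham values, with differences of -0.50, -0.38 and -0.26. Gpr37 and Gpr17 were the 2 of 35 genes with both ECS arrays below both sham arrays, against 30.7% of all genes, and Sox10 and Fa2h the 2 with both above, against 18.7% of all genes. These shares were below those of all genes.

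Among the progenitor markers, Pdgfra read 8.15 on ECS 1 and 7.95 on ECS 2, against 8.02 and 8.10 on sham 1 and sham 2 (-0.01 ± 0.11, adjusted p = 0.981). Cspg4, the NG2 proteoglycan gene, had 6.90 and 6.98 on the ECS arrays, against 6.997 and 6.94 on the sham arrays (-0.03 ± 0.09). Pdgfra was measured over 30 probesets and Cspg4 over 13, and the groups of both overlapped. A single Pdgfra probeset, chosen after its values were seen, stood at 7.03 and 6.37 on the ECS arrays, against 5.10 and 5.52 on the sham arrays (unadjusted p = 0.00820, adjusted p = 0.415 over all probesets).

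Gpr17, the receptor gene that marks committed progenitors and holds back their maturation, had the largest difference of the 35 genes and was the 1 gene at least 1.5-fold apart. It read 6.22 on ECS 1 and 6.63 on ECS 2, against 6.93 and 7.14 on sham 1 and sham 2 (-0.61 ± 0.17, 1.52-fold lower, unadjusted p = 0.0141, adjusted p = 0.186). ECS 1, the highest array for most myelin genes, was its lowest. Its 3 probesets are all listed for Lims2 as well, so the signals of these genes cannot be separated here. The differences were unequal, since 1 probeset had 3.71 and 4.34 on the ECS arrays, against 5.44 and 5.50 on the sham arrays (-1.45), and the other 2 had -0.26 and -0.10. Bcas1, a marker of early myelinating cells, was highest on ECS 1, with 7.42 on ECS 1 and 6.97 on ECS 2, against 6.97 and 7.16 on the sham arrays.

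**Figure D3:**
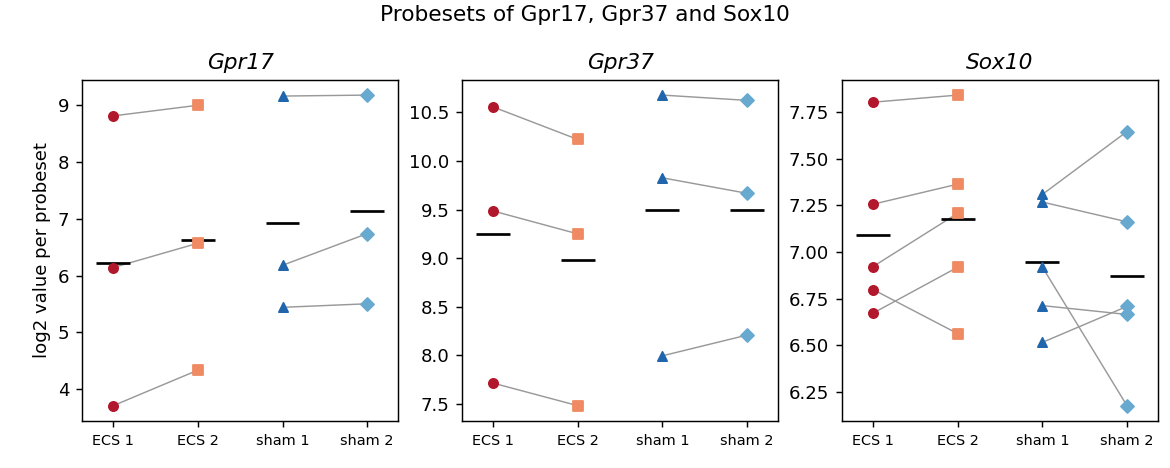
Log2 value of each probeset (y axis) of Gpr17, Gpr37 and Sox10 on the 4 arrays; grey lines join the arrays of a group and black bars are means over probesets. The lowest Gpr17 probeset carries most of its difference, and the 3 Gpr37 probesets lie lower on both ECS arrays.

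Among the lineage regulators, Sox10, the transcription factor that drives the whole lineage, had 7.09 and 7.18 on the ECS arrays, against 6.95 and 6.87 on the sham arrays (0.23 ± 0.09, adjusted p = 0.305). It was the only gene of the 35 highest on ECS 2. Each of its 5 probesets had a higher mean on the ECS arrays, by 0.10 to 0.38, and in 2 of the 5 the groups did not overlap. Myrf, the factor that switches on myelin genes, was highest on ECS 1, with 7.50 and 7.15 on the ECS arrays, against 7.24 and 7.001 on the sham arrays (0.21 ± 0.15).

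Olig2, a lineage transcription factor gene, had 6.79 and 6.73 on the ECS arrays, against 6.95 and 6.72 on the sham arrays. Qk, which encodes an RNA-binding protein that regulates myelin transcripts and is also made in astrocytes, had 11.39 and 11.19 on the ECS arrays, against 11.30 and 11.26 on the sham arrays (0.01 ± 0.11). The homeobox gene Nkx6-2 had a difference of 0.11 ± 0.11 and Nkx2-2, with both probesets also listed for its antisense gene Nkx2-2os, 0.06 ± 0.14. For none of these 4 genes did the ECS and sham groups separate.

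Of the remaining genes, Cldn14, a claudin gene read from 1 probeset in its brightest row, had 6.10 on ECS 1 and 5.14 on ECS 2, against 5.50 and 5.30 on the sham arrays. Its other transcript rows differed by 0.02 and 0.05. Tmem88b, also from 1 probeset, had 7.95 and 7.17 on the ECS arrays, against 8.35 and 7.53 on the sham arrays, and was the gene with the widest gap between the sham arrays. Evi2a, which lies in an intron of Nf1 and shares its 2 probesets with Nf1 and Evi2, had 7.47 and 7.12 on the ECS arrays, against 7.27 and 6.83 on the sham arrays. Ninj2, an adhesion molecule gene, had 5.47 and 5.39 on the ECS arrays, against 5.21 and 5.65 on the sham arrays. None of these 4 genes separated the groups.

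Over the 35 genes the median log2 difference was 0.13, against -0.04 over all genes, and 26 of 35 were positive, against 42.1% of all genes. With arrays centred on their medians 31 of 35 were positive. The median over all genes was then 0.04, so most of all genes were positive as well. Without ECS 1 the median was -0.09 with 13 positive, against a median of -0.04 over all genes. Without ECS 2 it was 0.38 with 31 positive, against -0.03 over all genes. In neither case did any gene pass the test, among the 35 or among all genes. At an unadjusted p under 0.05, 16 were higher and 1 lower without ECS 2, against 5.27% and 5.97% of all genes in that fit. Without ECS 1, 0 were higher and 4 lower, against 5.27% and 9% of all genes. In these fits the lone ECS array is assumed to vary as the sham arrays do, which alone supply the spread.

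**Figure D4:**
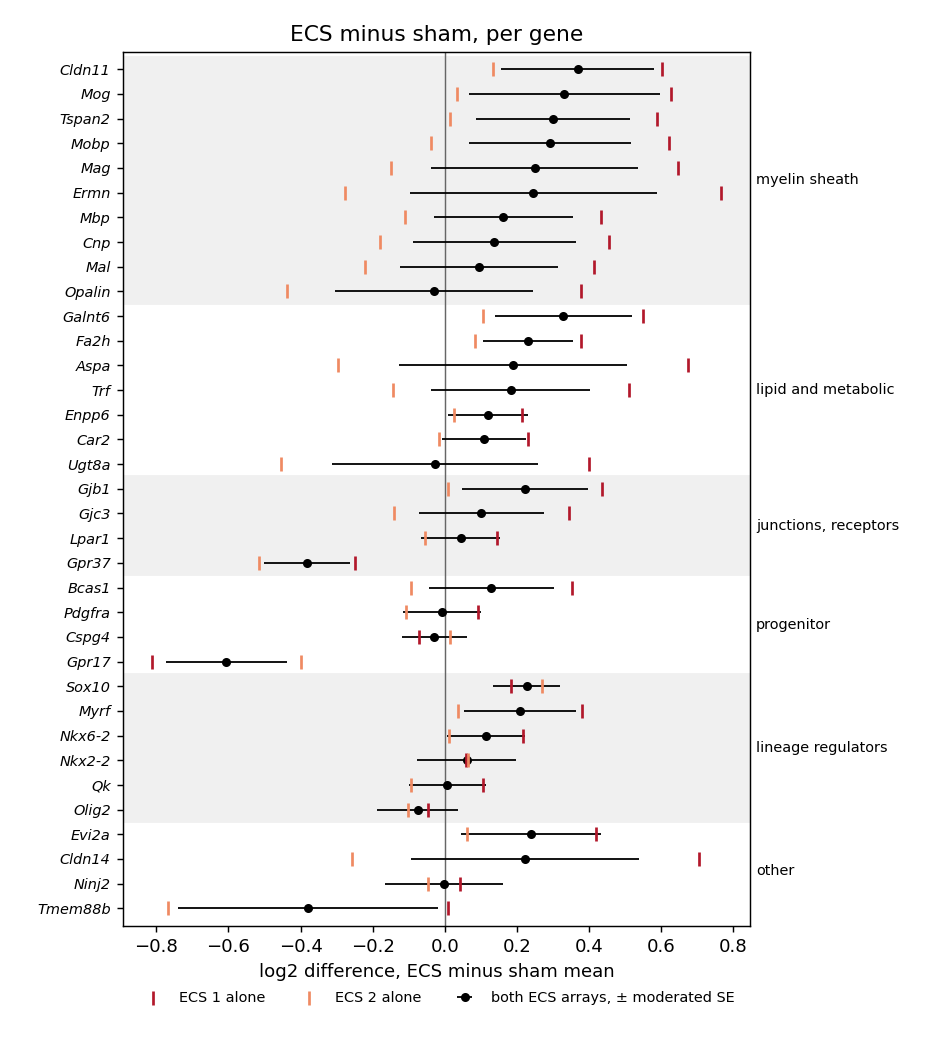
Log2 difference of the ECS mean from the sham mean with its moderated SE (black), and of ECS 1 and ECS 2 alone (coloured bars), for each of the 35 genes. For most myelin genes ECS 1 lies right of 0 and ECS 2 near or left of it. Both lie left of 0 for Gpr17, Gpr37 and Olig2. Both lie right of it for Sox10, Cldn11, Fa2h and several other genes.

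Of the 314 probesets of the 35 genes, 197 were highest on ECS 1, against 22.7% of 229712 probesets. By limma 0 of the 314 passed, against 0% of all probesets. At an unadjusted p under 0.05, 10 were higher and 3 lower, against 4.25% and 5.92% of all. Of these, 2 belonged to Mobp and were chosen after their values were seen. The first had 7.69 and 7.04 on the ECS arrays, against 6.47 and 6.48 on the sham arrays, and the second 7.55 and 7.42 on the ECS arrays, against 6.83 and 6.80 on the sham arrays. In both, ECS 2 stood above the sham arrays, unlike the Mobp mean.

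Other genes of these cells, from further lists, were compared in the same fit. These lists too were chosen with earlier results of these data known. Of 22 further genes of mature oligodendrocytes, 0 passed, 14 were highest on ECS 1, and their median difference was 0.04. The largest differences in this list were those of Il33 (0.24 ± 0.15) and Pllp (-0.19 ± 0.11). Of 18 further genes of progenitors and newly formed oligodendrocytes, 0 passed and 2 were highest on ECS 1, with a median difference of -0.02. Sox8, a relative of Sox10, had 8.48 and 8.51 on the ECS arrays, against 8.06 and 7.95 on the sham arrays (0.49 ± 0.09, adjusted p = 0.104), and Tnr, a matrix glycoprotein gene, had -0.33 ± 0.09 (adjusted p = 0.184). Of 12 genes of sphingolipid synthesis and turnover 0 passed, with Gal3st1, the sulfatide synthase gene, at 0.24 and Arsa, the sulfatide-degrading arylsulfatase gene, at -0.28.

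Among these lists of oligodendrocyte biology, genes passed the test in that of signals to the lineage. Pdgfc, which encodes a ligand of the Pdgfra receptor, rose to 8.23 and 8.16 on ECS 1 and ECS 2, against 6.67 and 6.81 on sham 1 and sham 2 (log2 difference 1.46 ± 0.10, 2.74-fold higher, adjusted p = 0.0154). In 8 of its 9 probesets both ECS values lay above both sham values. Pdgfa, the ligand gene best known for driving progenitors, had 8.07 and 7.97 on the ECS arrays, against 7.93 and 7.92 on the sham arrays (0.09 ± 0.09, adjusted p = 0.657). Ntf3, a neurotrophin gene, fell to 6.99 and 6.98 on the ECS arrays, against 8.43 and 8.13 on the sham arrays (log2 difference -1.29 ± 0.13, adjusted p = 0.0348). The other 15 of the 17 measured genes of this list did not pass.

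Neither Pdgfc nor Ntf3 passed in any of the 4 fits that left out an array, while their log2 differences there ran from 1.38 to 1.53 for Pdgfc and from -1.44 to -1.14 for Ntf3. The adjusted p over the 12 alternatives ran from 0.00113 to 0.0714 for Pdgfc and from 0.00332 to 0.141 for Ntf3, which passed in 5 of the 12. Of 9 measured genes known to restrain oligodendrocyte maturation, 0 passed. Hes1, a Notch target gene, had 8.44 and 8.36 on the ECS arrays, against 7.65 and 7.70 on the sham arrays (0.72 ± 0.09, adjusted p = 0.0555), and the largest decrease was that of Gpr17.

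Markers of other cell types were read on the same arrays. Median differences between ECS 1 and ECS 2 were 0.13 for 10 pyramidal genes, 0.18 for 10 endothelial and mural genes, 0.26 for 11 choroid plexus and ependymal genes and 0.30 for 5 blood genes. They were -0.06 for 8 granule cell genes, -0.03 for 8 interneuron genes, -0.03 for 11 astrocyte genes and 0.00 for 9 microglia genes, against 0.64 for the myelin sheath genes. Summed linear values of the choroid plexus and ependymal genes were 2171 and 1611 on ECS 1 and ECS 2, against 1829 and 4712 on sham 1 and sham 2, with the highest sum on sham 2. ECS 1 was highest for 1 of these 11 genes. Enpp2, the brightest of them on each array, weighed most in the sums. It had 10.34 and 9.76 on the ECS arrays, against 9.87 and 11.19 on the sham arrays. Ttr, the transthyretin gene of choroid plexus, had 6.55 and 5.90 on the ECS arrays, against 6.12 and 10.16 on the sham arrays. The summed values of the blood genes were 13836 and 11518 on the ECS arrays, against 5821 and 9049 on the sham arrays. Hbb-b2 and Hbb-bt share all their probesets, as do Hba-a1 and Hba-a2, so these 5 genes are 3 separate measurements and each globin signal is counted 2 times in the sums. Of the granule cell genes, Tdo2, Stc1 and Dsp fell, with log2 differences of -2.86, -1.53 and -1.37, while Prox1, their defining transcription factor gene, had 0.22 ± 0.09. The part of these other cell types in the oligodendrocyte values was not tested.

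**Figure D5:**
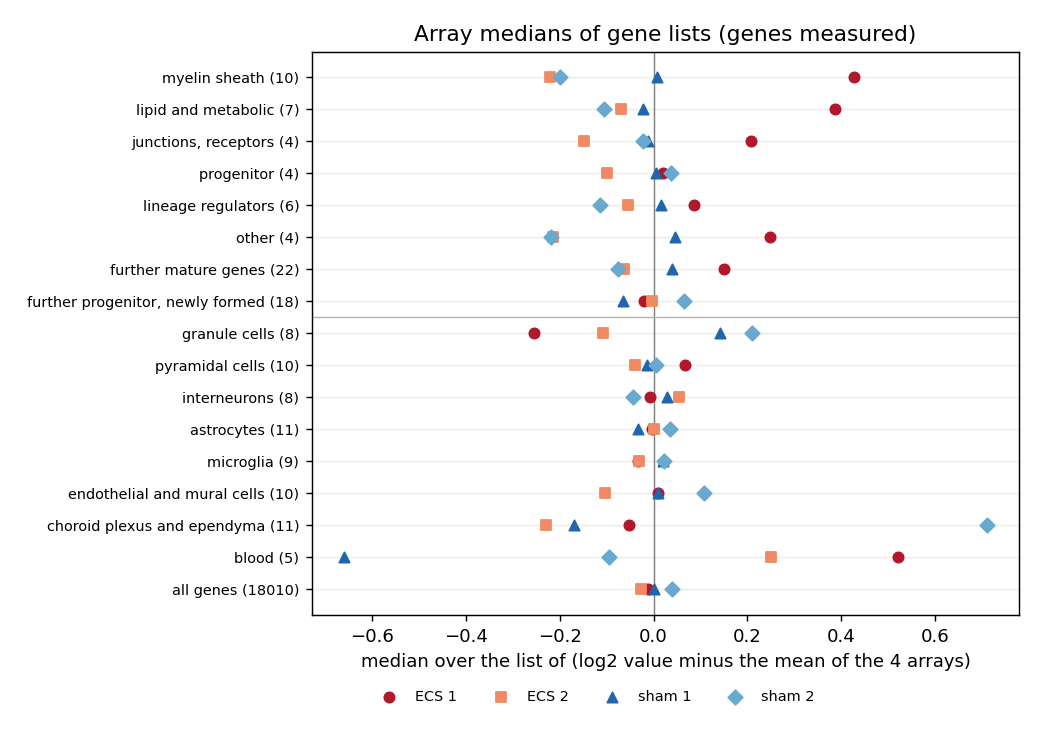
Median over each gene list (rows; number of genes measured in brackets) of the log2 value minus the mean of the 4 arrays (x axis), one point per array. ECS 1 stands apart for the myelin sheath and the lipid and metabolic genes, sham 2 for the choroid plexus and ependymal genes, and sham 1 and ECS 1 lie at opposite ends for the blood genes.

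Over all 18010 genes the median log2 value was 7.26 on ECS 1 and 7.20 on ECS 2, against 7.25 on sham 1 and 7.35 on sham 2. The p-values measure only the spread between these arrays.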

How the data were processed

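The deposited probeset table holds log2 values for 631652 probesets on 4 arrays; the submitters' processing notes name oligo and RMA, with versions and genome build not stated there. Per-array gene values were computed here as means over the probesets that a deposited mapping lists for each transcript, because the columns of the probeset table, unlike those of the deposited gene table of log2 values, name samples. Both agreed for all 22485 transcript rows with probesets, within 1e-05, when compared by group. The 3621 rows without probesets were left out. Symbols were updated by RefSeq identifier (24928 of 25635 matched, GRCm38.p6), and the row with the highest mean stood for a gene. Groups were fitted in limma 3.58.1 (R 4.3.3; lmFit, eBayes, no block, no filter), over 18010 genes and 229712 probesets separately. With 2 arrays per group, their number limits the precision. The fit was tested on simulated data. Genes and lists were chosen with earlier results of these data known, and the promoter motifs and windows after the gene values and motif matches were seen. Named genes follow a rule: all 36 genes are accounted for, with values per array for the 2 largest differences each way in a role and for arrays of a group over 0.5 apart; other lists give called genes and the largest difference each way. Pdgfa, Prox1 and Ttr were named for their roles, and Enpp2 for its level, after their values were seen.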

Additional observations from a re-analysis of the deposited data

How the results depend on the processing

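No gene of the 35 passed the threshold under any of the 13 alternatives run: each array left out, median centring, quantile normalization, the mean of a gene's rows, shared probesets left out (32 genes tested), the dimmest 25% of genes left out (33 tested), trend and robust variance, an adjusted p under 0.10 and both blocks. The replicate number as a block called 0 of the 35 genes and 0 of their probesets, against 0 of all 229712 probesets. Over all 18010 genes, same-numbered arrays deviated with a correlation of -0.203. Among the 35 genes, ECS 1 was above ECS 2 for 31, sham 1 above sham 2 for 26, and both held for 23. Given the first counts, an overlap of that size does not show a link between same-numbered arrays. Because of the correlation over all genes, the numbers were also crossed, a choice made after seeing the data. The crossed block again called 0 of the 35. Among all genes the block called 26 higher and 6 lower and the crossed block 106 and 48, against 90 and 35; leaving out 1 array gave 0 to 5 higher and 0 to 2 lower, leaving out dim genes 242 and 216, trend and robust variance 365 and 352, and median centring 80 and 18. No probeset of these genes passed in the 7 alternatives run for probesets, but neither did a probeset of any other gene. The median log2 difference of the 35 genes, 0.13, ran from -0.09 to 0.38 when 1 array was left out, and was 0.20 with median centring, 0.17 with quantile normalization, 0.13 without shared probesets and 0.11 with a gene's rows averaged.

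Of 315 differences of single genes under 9 alternatives, 278 kept their direction and 37 reversed. Trend and robust variance and the replicate block leave every difference as it was, and so do averaged rows for a gene with a single row. The 278 therefore include differences that could not reverse. Without ECS 1, 15 reversed. With 1 array left out, the genes that reversed ranged as follows on the log2 scale: Mbp -0.11 to 0.43, Mobp -0.039 to 0.62, Cnp -0.18 to 0.45, Mal -0.22 to 0.41, Mag -0.15 to 0.65, Opalin -0.44 to 0.38, Ermn -0.28 to 0.77, Ugt8a -0.46 to 0.40, Aspa -0.30 to 0.68, Car2 -0.017 to 0.23, Trf -0.14 to 0.51, Gjc3 -0.14 to 0.34, Lpar1 -0.056 to 0.14, Pdgfra -0.11 to 0.093, Cspg4 -0.071 to 0.013, Bcas1 -0.094 to 0.35, Olig2 -0.19 to 0.039, Nkx2-2 -0.11 to 0.23, Qk -0.094 to 0.11, Ninj2 -0.22 to 0.22, Tmem88b -0.79 to 0.033 and Cldn14 -0.26 to 0.70. With median centring the reversed differences were Opalin 0.042, Ugt8a 0.045, Pdgfra 0.065, Cspg4 0.043 and Ninj2 0.069, and with quantile normalization Opalin 0.031, Pdgfra 0.047, Cspg4 0.051 and Ninj2 0.021. Pdgfc passed under 8 of 12 alternatives and Ntf3 under 5; Ntf3 also missed with median centring, quantile normalization and the replicate block. Leaving out an array leaves fewer samples; otherwise the cause was not tested.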
